A study of Homo sapiens with 4 samples.

Results

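The gene for the transcription cofactor LBH and 9 genes for transcription factors of squamous and basal progenitor cells were followed in FaDu cells. FaDu is an established human cell line of hypopharyngeal squamous carcinoma. The 10 genes were taken by name from a table of 60649 genes. The set was chosen by function around LBH and SOX2, whose log2 fold changes in this same comparison were already known to be positive. Levels and fold changes of the 10 genes are therefore given as a description, with no p-value, and calls among them are only counted. All 10 genes passed the filter on low counts.

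Both groups were FaDu cells grown in MEM alpha with fetal bovine serum. One group, the controls, carried an empty vector and the other overexpressed TINCR-HA-FLAG, the TINCR product joined to HA and FLAG epitope tags. Each group had 2 libraries, and the series calls the replicates technical, so any p-value measures only the spread between these libraries. The labels do not say how the construct was delivered or whether cells were pooled or cloned. Total counts ran from 17069533 to 22331602 per library. TINCR itself, the check of the labels, had 68 and 64 counts in the controls and 1921 and 2943 counts with the construct. All 12 marker genes of squamous and basal epithelium had more than 3 counts in every library. They summed to 9128 and 10479 CPM (counts scaled to the normalised library size) in the controls and to 7719 and 9252 CPM with TINCR-HA-FLAG. Of these 12, 1 had a positive and 11 a negative log2 fold change, beside 49.3% negative over all genes tested. edgeR called 1 lower (KRT14) and DESeq2 2, beside 0.0959% and 0.431% of the genes to which each gave an adjusted p. The 6 leukocyte markers summed to 9.56 to 13.4 CPM. CD14 (105 to 201 counts per library) and LYZ (61 to 84 counts) were the highest of them, and PTPRC had 3 to 6 counts. The 7 fibroblast markers summed to 42.3 to 51.1 CPM, with 407 to 746 counts of COL1A1 per library, and edgeR called none of them. The 6 endothelial markers summed to 23.1 and 24.8 CPM in the controls and to 48.9 and 52.2 CPM with TINCR-HA-FLAG. Of these, 3 could be tested, with 2 positive log2 fold changes and 1 negative. CDH5 was called higher by edgeR (adjusted p = 0.0012). VWF had 156 and 176 counts in the controls and 244 and 272 counts with TINCR-HA-FLAG, and edgeR did not call it. PECAM1 had 4 to 8 counts per library. The part of these marker genes in the results was not tested. In these bulk libraries, fewer cells with a transcript and less transcript per cell cannot be told apart.

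Squamous epithelium is maintained by basal progenitor cells whose identity depends on a small set of DNA-binding proteins. TP63 encodes p63, a factor without which stratified epithelium does not form. SOX2, a factor of stem cells and of the foregut, is often amplified together with TP63 in squamous carcinomas. KLF5, the AP-2 proteins, PITX1, SOX15, SOX9 and the zinc finger protein basonuclin 1 act in the same epithelia. LBH is a small nuclear cofactor and a target of Wnt signalling that is known from limb and heart development and from basal progenitor cells of the mammary gland.

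Promoter windows are shown for LBH and SOX2, because these were the members with the largest differences. Each window runs from 250 bases before to 50 bases after the start in RefSeq (GRCh38.p14), and capitals mark the HMG-box core ACAAAG or its reverse complement. SOX proteins and the TCF/LEF factors of the Wnt pathway can bind this core. The LBH window lies at chr2:30231284-30231583 on the plus strand, and that of SOX2 at chr3:181711675-181711974 on the plus strand.
LBH: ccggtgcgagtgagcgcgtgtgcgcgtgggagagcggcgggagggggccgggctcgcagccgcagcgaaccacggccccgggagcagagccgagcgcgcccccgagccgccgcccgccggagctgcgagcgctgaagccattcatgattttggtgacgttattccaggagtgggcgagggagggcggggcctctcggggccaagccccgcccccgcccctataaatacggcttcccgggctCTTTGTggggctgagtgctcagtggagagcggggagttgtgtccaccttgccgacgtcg
SOX2: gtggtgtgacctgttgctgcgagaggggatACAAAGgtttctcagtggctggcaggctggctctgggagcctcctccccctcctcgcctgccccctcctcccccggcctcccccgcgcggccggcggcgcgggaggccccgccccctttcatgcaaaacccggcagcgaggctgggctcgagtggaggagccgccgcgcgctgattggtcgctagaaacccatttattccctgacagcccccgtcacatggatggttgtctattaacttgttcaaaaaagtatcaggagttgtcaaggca
The single match began 9 bases before the start in LBH and 220 bases before it in SOX2. Of 35116 windows of this length, 16.1% held the core on either strand. RefSeq windows were found for 7 of the 10 members, 10 windows in all, and 2 of these windows held the core. The GC box GGGCGG, a site of KLF and SP proteins, matched 4 times in the LBH window and once in the SOX2 window, against a share of 45% of all windows with a match. The TATA box TATAAA occurred in the LBH window and not in that of SOX2 (11.5% of all windows). The AP-2 site GCCNNNGGC occurred in the SOX2 window and not in that of LBH (23.2% of all windows). A GC box can overlap an AP-2 site. These matches describe letters and not bound sites.

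LBH (ENSG00000213626.13, chromosome 2, 30231369 to 30323730, plus strand) was the member that differed most. It had 27.6 and 38.3 CPM in the empty vector libraries and 165 and 186 CPM in the TINCR-HA-FLAG libraries. Both TINCR-HA-FLAG libraries lay above both others, and the lower of them was 4.30-fold above the higher empty vector library. The fitted difference was 5.32-fold, a log2 fold change of 2.41 (SE 0.15). Compared within the same replicate number, the TINCR-HA-FLAG library was 5.98-fold higher for replicate 1 and 4.85-fold higher for replicate 2. LBH stood in place 15 from the top among the log2 fold changes of 18771 genes tested. No annotated gene overlapped it.

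SOX2 (ENSG00000181449.4, chromosome 3, 181711924 to 181714436, plus strand) is a gene of 1 exon. It had 11.1 and 15.2 CPM in the controls and 23.7 and 29.7 CPM with TINCR-HA-FLAG. The groups did not overlap, but the gap was narrow, at 1.56-fold between the nearest libraries. The fitted difference was 2.04-fold, a log2 fold change of 1.03 (SE 0.18). It was 0.78 with empty vector replicate 1 left out and 1.28 when replicate 2 of that group was left out, so the size depended on which control library was kept.

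**Figure D1:**
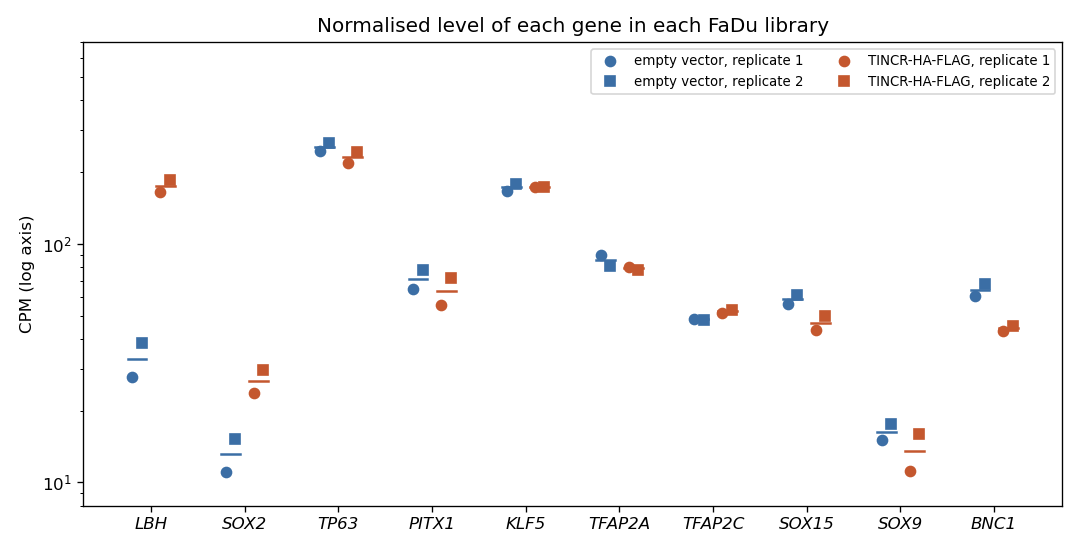
CPM (log axis) of the 10 genes in each of the 4 libraries, with circles for replicate 1, squares for replicate 2 and a line at the mean of 2 libraries. LBH and SOX2 stand higher in both TINCR-HA-FLAG libraries, while the other 8 genes stay within 1.45-fold between group means.

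SOX2 lies within the noncoding gene SOX2-OT, which runs on the same strand. The annotated exons of the 2 genes share 0 bases. SOX2-OT had 22 and 17 counts in the controls and 39 and 39 counts with TINCR-HA-FLAG. Its log2 fold change was 0.75 (SE 0.41, edgeR adjusted p = 0.60) and it did not pass the test.

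TP63 (ENSG00000073282.14, chromosome 3, 189631416 to 189897279, plus strand) was the most highly counted member. It had 245 and 265 CPM in the controls and 219 and 243 CPM with TINCR-HA-FLAG. The log2 fold change was -0.14 (95% interval -0.39 to 0.10), and the libraries of both groups nearly met at 245 and 243 CPM. The annotation lists 14 transcripts of TP63. Counts per gene do not tell the long isoforms from the short ones that basal cells use.

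KLF5, a zinc finger factor of proliferating epithelial progenitors on chromosome 13 (73054976 to 73077542, plus strand), had close values in all libraries. They were 166 and 179 CPM with the empty vector and 173 in both TINCR-HA-FLAG libraries. The log2 fold change was 0.007 (95% interval -0.22 to 0.23). PITX1, a homeobox factor of oral and hindlimb epithelium and mesenchyme on chromosome 5 (135027735 to 135034813, minus strand), had 64.7 and 77.7 against 55.2 and 72.2 CPM. Its groups overlapped, with a log2 fold change of -0.16 (95% interval -0.48 to 0.16). PITX1 shares 293 exon bases with an antisense gene (ENSG00000277619) that had 11 to 16 counts per library.

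The AP-2 genes encode paralogous factors that bind GC-rich sites and act in ectoderm. TFAP2A (chromosome 6, 10393186 to 10419659, minus strand) had 89.9 and 80.7 CPM in the controls and 80.4 and 77.8 CPM with TINCR-HA-FLAG. TFAP2C (chromosome 20, 56629302 to 56639283, plus strand) had 48.6 and 47.9 against 51.3 and 53.1 CPM. The log2 fold change was -0.11 (95% interval -0.34 to 0.12) for TFAP2A and 0.11 (95% interval -0.12 to 0.34) for TFAP2C. The direction was opposite in the 2 genes, and both intervals included 0. TFAP2A shares 941 exon bases with its antisense gene TFAP2A-AS2, which had 147 to 239 counts per library, and 438 with TFAP2A-AS1. Whether counting used strand is not given in the sources used here, so part of these reads may not be from TFAP2A.

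Both other SOX members had negative log2 fold changes. SOX15 (chromosome 17, 7588178 to 7590170, minus strand), a SOX factor of myogenic cells and stratified epithelium, had 56.0 and 61.3 CPM in the controls and 43.4 and 50.1 CPM with TINCR-HA-FLAG. Its log2 fold change was -0.33 (95% interval -0.58 to -0.07), and the groups did not overlap. SOX15 shares 15 exon bases with MPDU1 on the opposite strand, which had 1000 to 1526 counts per library. SOX9 (chromosome 17, 72121020 to 72126420, plus strand), a factor of cartilage and of hair follicle progenitors, had 15.0 and 17.6 against 11.2 and 15.9 CPM. Its log2 fold change was -0.26 (95% interval -0.68 to 0.16), and it was -0.55 without TINCR-HA-FLAG replicate 2 and -0.03 without TINCR-HA-FLAG replicate 1. The fold change of SOX9 was thus near 0 once that library was left out.

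BNC1 (ENSG00000169594.14, chromosome 15, 83255903 to 83284714, minus strand) had the most negative difference of the 10 genes. Basonuclin 1 is a zinc finger protein of basal keratinocytes and germ cells. BNC1 had 60.3 and 68.2 CPM in the controls and 43.3 and 45.3 CPM with TINCR-HA-FLAG. The groups did not overlap, and the nearest libraries differed by 1.33-fold. The log2 fold change was -0.54 (SE 0.11), a level 1.45-fold higher with the empty vector.

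**Figure D2:**
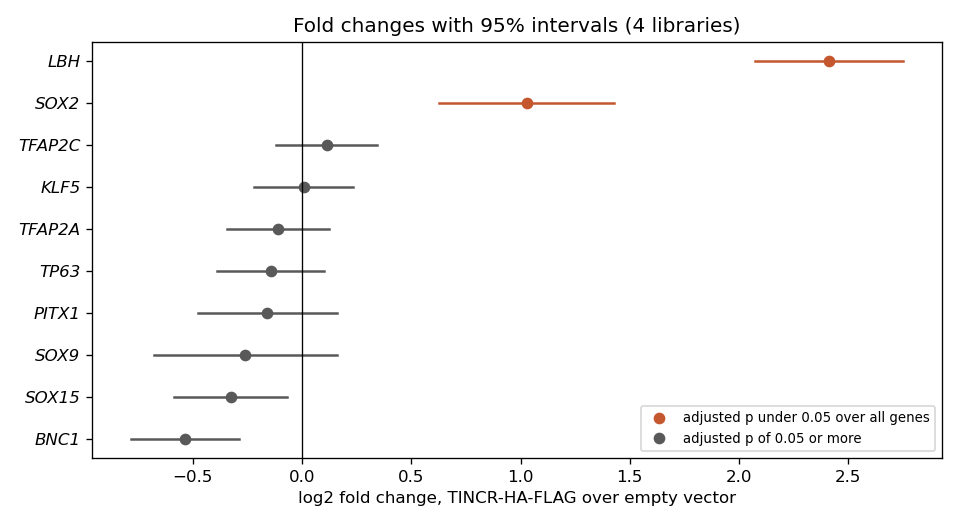
Log2 fold change of TINCR-HA-FLAG over empty vector for the 10 genes, with 95% intervals from the edgeR fit on 4 libraries. The intervals of LBH and SOX2 lie above 0, those of SOX15 and BNC1 below 0, and the other 6 include 0. edgeR did not call SOX15 or BNC1. The intervals are not adjusted for the number of genes tested, of which 10.2% had an unadjusted p under 0.05 in edgeR. Since the members were chosen with this comparison known, nothing is read from their sorting.

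Of the 10 genes, 2 were called higher and 0 lower at an adjusted p under 0.05 in edgeR, over all 18771 genes tested. The share called among all genes was 0.549%, with 0.453% higher and 0.0959% lower. DESeq2 called 2 members higher and 1 lower, beside 1.39% of the 13676 genes to which it gave an adjusted p, with 0.958% higher and 0.431% lower. The 2 groups did not overlap in 7 members, of which 3 were above and 4 below with TINCR-HA-FLAG. Over all genes tested this held for 39.6%, with 21.7% above and 17.9% below. Since the members were chosen with this comparison known, nothing is read from these counts. The median log2 fold change of the 10 genes was -0.13, beside 0.004 over all genes tested.

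**Figure D3:**
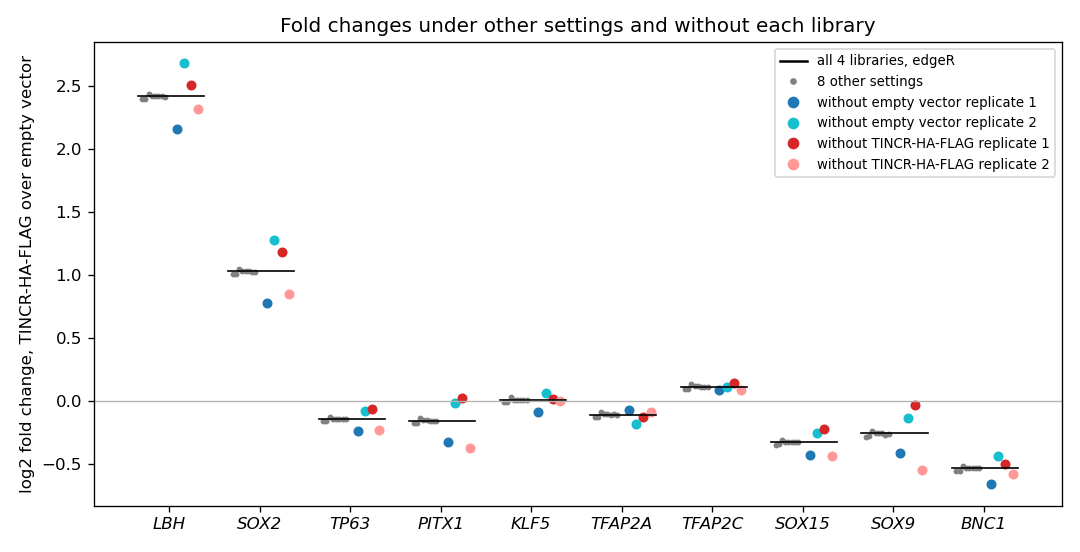
Log2 fold change of the 10 genes with all 4 libraries (line), under 8 other settings (grey points) and without each library in turn (coloured points). LBH stays between 2.15 and 2.68 and SOX2 between 0.78 and 1.28, and the sign of PITX1 and KLF5 depends on the setting.

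Levels of different genes were compared per kilobase of exon, as FPKM (CPM divided by the length of the union of annotated exons in kilobases). With the empty vector, KLF5 stood highest at 44.3 ± 2.28 FPKM (SD, n = 2), then SOX15 at 38.1 ± 2.41 and TP63 at 34.2 ± 1.90. PITX1, TFAP2C, BNC1 and TFAP2A followed between 20.3 and 10.3 FPKM. LBH (7.01 ± 1.62 FPKM), SOX2 (5.23 ± 1.16) and SOX9 (4.15 ± 0.47) were the lowest, and each of these overlapped its neighbour in the order. With TINCR-HA-FLAG, LBH had 37.3 ± 3.19 FPKM (SD, n = 2) and took the second place, below KLF5 at 44.5 ± 0.06 and above TP63 at 31.0 ± 2.31. SOX2 moved from place 9 to place 7, at 10.6 ± 1.69 FPKM, where it overlapped TFAP2A. SOX9 stayed the lowest at 3.44 ± 0.85 FPKM. With the length of the longest transcript in place of the exon union, TP63 led in the empty vector group and LBH in the TINCR-HA-FLAG group. The top of the order therefore depended on the length used.

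Within the SOX family, SOX15 took the largest share of the FPKM summed over 19 SOX genes. Its share was 54.6% and 52.8% in the empty vector libraries and 44.8% and 44.6% in the TINCR-HA-FLAG libraries. SOX2 took 6.63% and 8.04% in the controls and 15.0% and 16.3% with TINCR-HA-FLAG. SOX9 took between 4.53% and 5.95% in the 4 libraries. Shares of one family sum to a whole, so a higher share of SOX2 lowers the others. TFAP2C and TFAP2A together made up nearly all AP-2 transcripts, and TFAP2C held 59.4% to 64.3%. BNC1 made up at least 99.2% of the 2 basonuclin genes in each library, and PITX1 at least 86.5% of the 3 PITX genes.

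**Figure D4:**
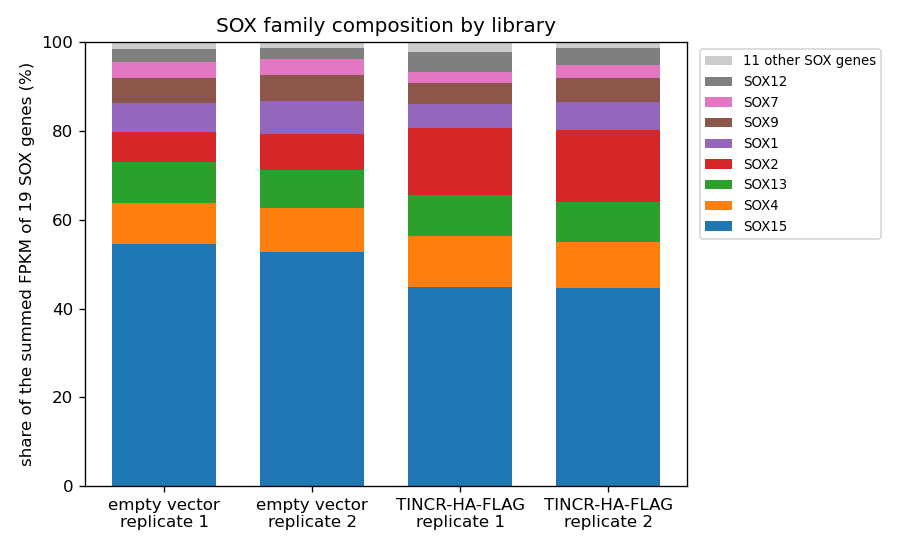
Share (%) of the FPKM summed over 19 SOX genes in each library, stacked by gene. SOX15 holds 44.6% to 54.6%, and the SOX2 segment is 6.63% and 8.04% in the empty vector libraries and 15.0% and 16.3% in the TINCR-HA-FLAG libraries.

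The paralogues of the members were then examined over the same fit, in which 10.2% of all genes tested had an unadjusted p under 0.05. Of 16 other SOX genes, 7 could be tested and none was called by edgeR or DESeq2. Their median log2 fold change was -0.01, and 2 had an unadjusted p under 0.05. SOX13, a SOX factor of the SoxD group and the most highly counted of them, had a log2 fold change of -0.01 (SE 0.11, edgeR adjusted p = 0.98). Of 16 other KLF genes, 12 were tested and 0 were called by edgeR, with 3 at an unadjusted p under 0.05 and a median of 0.10. DESeq2 called 1 lower, beside 0.431% of the genes to which it gave an adjusted p. This was KLF13, which is named because of that call (log2 fold change -0.69, SE 0.16, edgeR adjusted p = 0.11). KLF10, a gene induced by transforming growth factor beta, had a log2 fold change of -0.08 (SE 0.10, edgeR adjusted p = 0.86). Of 8 further paralogues from the AP-2, PITX, TP63 and basonuclin families, 5 were tested and none was called by either tool, with 2 at an unadjusted p under 0.05.

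Other transcription factors of squamous epithelium gave no call. Of 32 listed, 30 could be tested. The median was 0.11, and 19 log2 fold changes were above 0. Neither edgeR nor DESeq2 called one, and 5 had an unadjusted p under 0.05, beside 10.2% of all genes tested.

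Genes known as targets of p63 in the basal layer were examined beside TP63. The list was not split by the direction in which p63 acts on each gene, so its signs do not measure p63 activity. All 27 were tested, and 20 had a negative log2 fold change, beside 49.3% of all genes tested. The median was -0.16, and 8 had an unadjusted p under 0.05, beside 10.2% of all genes tested. edgeR called 0 higher and 2 lower, KRT14 and ITGA6, beside 0.0959% called lower over all genes. DESeq2 called 1 higher and 3 lower, beside 0.958% and 0.431% of the genes to which it gave an adjusted p. The 1 higher was FGFR2 (log2 fold change 0.61, SE 0.12, edgeR adjusted p = 0.072). The 3 lower were KRT14, ITGA6 and SFN (log2 fold change -0.71, SE 0.14, edgeR adjusted p = 0.074). KRT14, a basal keratin whose reads could be shared with similar keratins, had a log2 fold change of -1.08 (SE 0.15, edgeR adjusted p = 0.014). It was called lower in all 12 alternatives. ITGA6, an integrin subunit of hemidesmosomes, had a log2 fold change of -0.58 (SE 0.10, edgeR adjusted p = 0.046). Its call was lost without empty vector replicate 2 and with no filter on low counts. Both genes are also in the basal layer list on which earlier results of these data were known. Since the gene lists were chosen with such results known, nothing is read from the counts of this list.

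LBH is a target of Wnt signalling, and genes of that pathway were read beside it. Of 38 listed targets and components, 33 could be tested. AXIN2, LGR5, NOTUM, DKK4 and SFRP1 had too few counts for the test (0 to 18 per library). The list mixes targets with components, so its median does not measure the output of Wnt targets. The median was 0.02, and 17 log2 fold changes were above 0. edgeR called none, with 4 at an unadjusted p under 0.05, and DESeq2 called 2 higher. These were the ligand gene WNT4 and APCDD1, a Wnt inhibitor gene, named because of those calls. WNT4 had a log2 fold change of 0.74 (SE 0.14, edgeR adjusted p = 0.053) and APCDD1 one of 1.04 (SE 0.22, edgeR adjusted p = 0.088). CTNNB1, which encodes beta-catenin, had the highest CPM of the list averaged over both groups, which is not a level per kilobase. Its log2 fold change was -0.08 (SE 0.11, edgeR adjusted p = 0.89).

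SOX2 and TP63 lie on the long arm of chromosome 3, in a region often gained in squamous carcinoma. Besides TP63, 25 genes of that region were listed and all were tested. Their median log2 fold change was -0.04 with 8 positive and 17 negative, beside 49.3% negative over all genes tested. edgeR called none, beside 0.549% of all genes tested, and 3 had an unadjusted p under 0.05, beside 10.2%. DESeq2 called 1 higher, beside 0.958% of the genes to which it gave an adjusted p. This was the tight junction gene CLDN1 (log2 fold change 0.64, SE 0.12, edgeR adjusted p = 0.054). EIF4G1, a translation initiation factor gene and the one with the highest CPM (not a level per kilobase), had a log2 fold change of -0.18 (SE 0.13, edgeR adjusted p = 0.71).

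**Figure D5:**
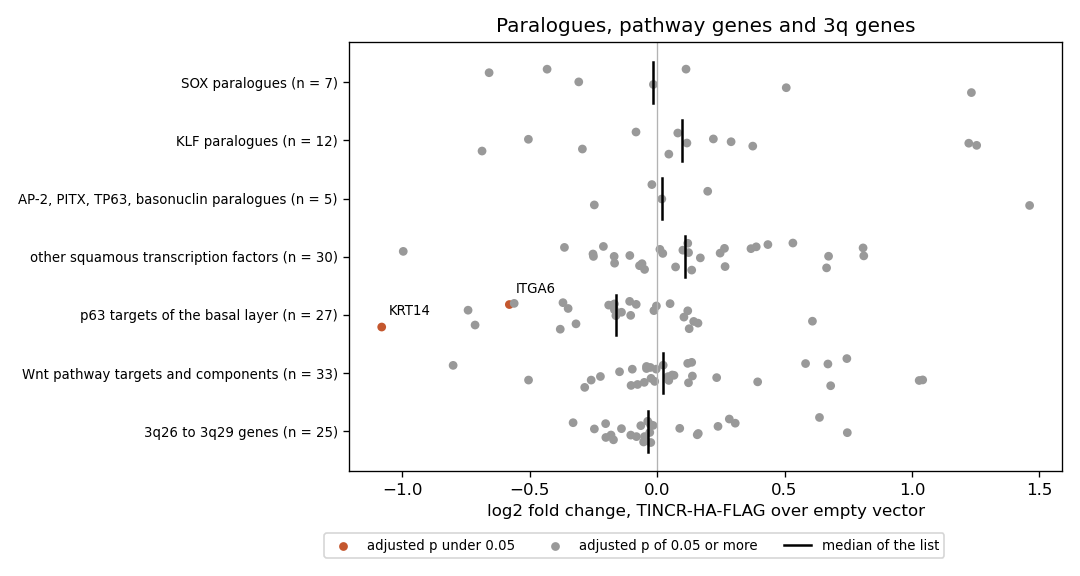
Log2 fold change of each tested gene in 7 lists, with black lines at the list medians and the calls of edgeR in red. KRT14 and ITGA6 are the 2 called genes, and the medians run from -0.16 to 0.11.

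Genes within 1 Mb of the start of a member were read beside it. LBH had 5 tested neighbours, with log2 fold changes from -0.03 to 0.65 and none called by edgeR. The highest was YPEL5, 84.4 kb upstream, at 0.65 (SE 0.15, edgeR adjusted p = 0.11), and the nearest downstream was LCLAT1 at 0.08 (SE 0.12). SOX2 had 3 tested neighbours from -0.08 to 0.75, with the host gene SOX2-OT at the top and DNAJC19 at -0.08 (SE 0.11). TP63 had 5 from -0.06 to 0.79, with the nearest, TPRG1 and P3H2, at 0.29 (SE 0.37) and 0.02 (SE 0.16). The 2 highest were tight junction genes named after their values were seen, CLDN16 at 0.79 (SE 0.31, edgeR adjusted p = 0.41) and CLDN1 at 0.64 (SE 0.12, edgeR adjusted p = 0.054). edgeR called no tested neighbour of LBH, SOX2 or TP63, beside 0.549% of all genes tested. DESeq2 called 1, CLDN1, beside 1.39% of the genes to which it gave an adjusted p. Around the other 7 members, both tools called 1 neighbour and no other. It was NEDD9, a scaffold protein gene of focal adhesions 963 kb from TFAP2A, also named after its values were seen. NEDD9 had 25.7 and 22.9 CPM in the controls and 57.2 and 59.2 CPM with TINCR-HA-FLAG (log2 fold change 1.26, SE 0.12, edgeR adjusted p = 0.0012).

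The genes whose profile over the 4 libraries was most like that of LBH were CEACAM6, SV2A and IGFBP5. Likeness was the Euclidean distance between centred log2 CPM values among 11720 genes, and it was 0.35, 0.52 and 0.54. CEACAM6, an adhesion glycoprotein gene with similar paralogs, had 1.93, 2.12, 9.29 and 9.87 CPM in the 2 empty vector and the 2 TINCR-HA-FLAG libraries, in that order. For SOX2 the nearest genes were PLTP, WFDC2 and PCSK1N, at distances of 0.11, 0.12 and 0.14. PLTP, a phospholipid transfer protein gene, had 8.29, 10.3, 16.5 and 20.5 CPM in the same order. By Pearson correlation, 164 genes exceeded an r of 0.99 with LBH and 141 with SOX2. Over 4 libraries such likeness is common, and the 3 nearest genes by that measure shared 0 with those above for either member.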

How the data were processed

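Libraries were prepared with a NEBNext Ultra kit from RNA purified on RNeasy columns, per the labels' protocols. The authors deposited raw read counts per Ensembl gene. The tools named in the submitters' processing notes are STAR 2.7.9a, bcl2fastq 2.20.0.422 and DESeq2 1.32.0, with GRCh38 as the build and no roles stated. How reads were counted, and whether by strand, is not given in the sources used here. The table has 12 further count columns that match no described sample, and they were left out. Columns were matched by cell line, construct and replicate number.

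Symbols came from a reference table (60463 of 60649 rows matched) and coordinates from GENCODE on GRCh38 (58381 rows). Counts were scaled by TMM and filtered with filterByExpr, which left 18771 genes. The test was edgeR's quasi-likelihood test (edgeR 4.0.16, R 4.3.3), with Benjamini-Hochberg adjustment over all genes tested and calls at an adjusted p under 0.05. The common biological coefficient of variation was 0.118. The tests were tested on simulated counts. Those counts held no effect of the replicate number, so such an effect is not covered. At these depths 3 counts, the floor used for marker genes, are 0.13 to 0.18 CPM, which is not an error of the levels.

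The members and the gene lists were chosen with earlier results of these data known. Named genes are the members, TINCR, and up to 4 called genes of each list or otherwise the one with the highest mean CPM. The nearest profiles to LBH and SOX2, and neighbours and overlapping genes of members, are also named. Neighbours are named for LBH, SOX2 and TP63. Some genes that this rule picks are not reported here. Genes added because of their calls or values were chosen after the data were seen, as were the promoter motifs. These genes were KLF13, WNT4, APCDD1, CLDN1, CLDN16, NEDD9, CDH5, VWF, CD14, LYZ, COL1A1, FGFR2, SFN and the Wnt genes named as untested. Alternatives were DESeq2 1.42.0, RLE or library totals in place of TMM, other filters, TINCR left out, a replicate block, the legacy dispersion, each library left out, another gene length and another measure of likeness.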

Additional observations from a re-analysis of the deposited data

How the results depend on the processing

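Between 2 libraries per group, small differences were at the limit of what these data resolve. DESeq2 called 131 genes higher and 59 lower, against 85 and 18 in edgeR. It called 1 member lower (BNC1), and 4 of the other listed genes higher and 4 lower, against 0 and 2. Without the filter on low counts, edgeR called 47 genes higher and 6 lower, with 1 member (LBH) higher and 1 other listed gene lower. Library totals gave 3 listed genes higher, and a minimum of 1 CPM in 2 libraries gave 2.

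Replicate numbers are shared by the groups, but nothing in the labels says that they pair the libraries. Differences between replicates 1 and 2 correlated between the groups at 0.37 across genes. With the replicate block, 1317 genes were called higher and 1316 lower, with 2 members lower (SOX15 and BNC1), and 18 listed genes higher and 25 lower. That fit leaves 1 residual degree of freedom per gene.

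With each library left out in turn, with the lone library of its group assumed to vary like the other group, genes called higher ran from 69 to 226 and genes called lower from 45 to 160. Members called lower ran from 0 to 1, listed genes called higher from 0 to 6 and listed genes called lower from 1 to 6. Both counts over all genes were highest without TINCR-HA-FLAG replicate 2, and the cause was not tested.

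Signs turned for genes near 0. SOX13 was 0.0037 with library totals and from -0.11 to 0.073 with a library left out. P3H2 was -0.00044 with DESeq2 and from -0.22 to 0.22 with a library left out. With a library left out, CTNNB1 ran from -0.18 to 0.0060, LCLAT1 from -0.073 to 0.21 and TPRG1 from -0.0068 to 0.57. The median log2 fold change of all genes lay between -0.015 and 0.0275 in these settings.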

Other observations

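In 8 of the 10 members, replicate 2 had a higher CPM than replicate 1 in both groups, and in 1 member (TFAP2A) it was lower in both. Among all 18771 genes tested, replicate 2 was higher in both groups for 33.2% and lower in both for 35.1%. For LBH the ratio of replicate 2 to replicate 1 was 1.39 in the controls and 1.13 in the TINCR-HA-FLAG group, and for SOX2 it was 1.37 and 1.25. For SOX9 it was 1.18 and 1.42, beside a fitted difference between groups of 1.20-fold.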
